A study of Mus musculus with 10 samples.

Results

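Extracellular ATP and adenosine act on cells through separate receptor families, and 9 genes of these families are described here in mouse brown fat. They are the ATP-gated channel genes P2rx1, P2rx4, P2rx5, P2rx6 and P2rx7 and the adenosine receptor genes Adora1, Adora2a, Adora2b and Adora3, taken by symbol from a count table of 20295 genes. The cold group was 5 male C57BL/6JBomTac mice held at 4 °C for 3 days, and the control group was 5 such mice kept at 22 °C. All 10 mice were 8 weeks old, single-housed before the experiment and fed chow. The count column headers mark all 10 as WT (wild type), and no transgene is named in the labels. A treatment tag of the cold samples calls 4 °C room temperature, while their titles and source names place them in the cold group. Poly-A selected RNA of the interscapular depot was sequenced, with a library for each mouse.

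P2X channels are trimeric cation channels that open when ATP binds from outside, and they let sodium and calcium in. ATP in the extracellular space is stripped of its phosphates in steps by ectonucleotidases, which yields adenosine. Adenosine receptors are G protein-coupled: Adora1 and Adora3 couple to Gi and lower cyclic AMP, whereas Adora2a and Adora2b couple to Gs and raise it. In adipocytes cyclic AMP drives lipolysis, and in brown adipocytes the fatty acids released activate the uncoupling protein Ucp1. Sympathetic nerves release ATP together with noradrenaline.

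Library totals ran from 5676963 to 6923932 counts in cold and from 4446163 to 5776905 in control libraries. Levels are given in CPM, the count scaled to a common library total after TMM normalisation. Ucp1, the defining gene of the tissue, stood at 18532 ± 852 CPM in cold and 9123 ± 801 CPM in control libraries (SD, n = 5 each). On the first principal component, which held 40.0% of the variance, cold replicate 5 lay nearest to the controls. On the second, with 19.2%, control replicate 2 and cold replicate 5 stood apart from the rest, so the fits without these libraries are given where they matter.

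Of the 9 genes, 6 had enough reads for edgeR's quasi-likelihood test, in which 11229 genes were adjusted together at a threshold of 0.05. Adora1 and P2rx5 fell in the cold and no member rose, so 2 of 6 tested members fell, where 9.14% of all tested genes fell, 10.2% rose and 19.3% changed in either direction. These were the adenosine receptor and the P2X channel with the highest levels in the tissue. P2rx1, P2rx4, P2rx6 and Adora2a did not pass the test. The median log2 fold change of the 6 members was -0.12, beside -0.02 over all genes tested. P2rx7, Adora2b and Adora3 had too few reads to be tested.

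**Figure D1:**
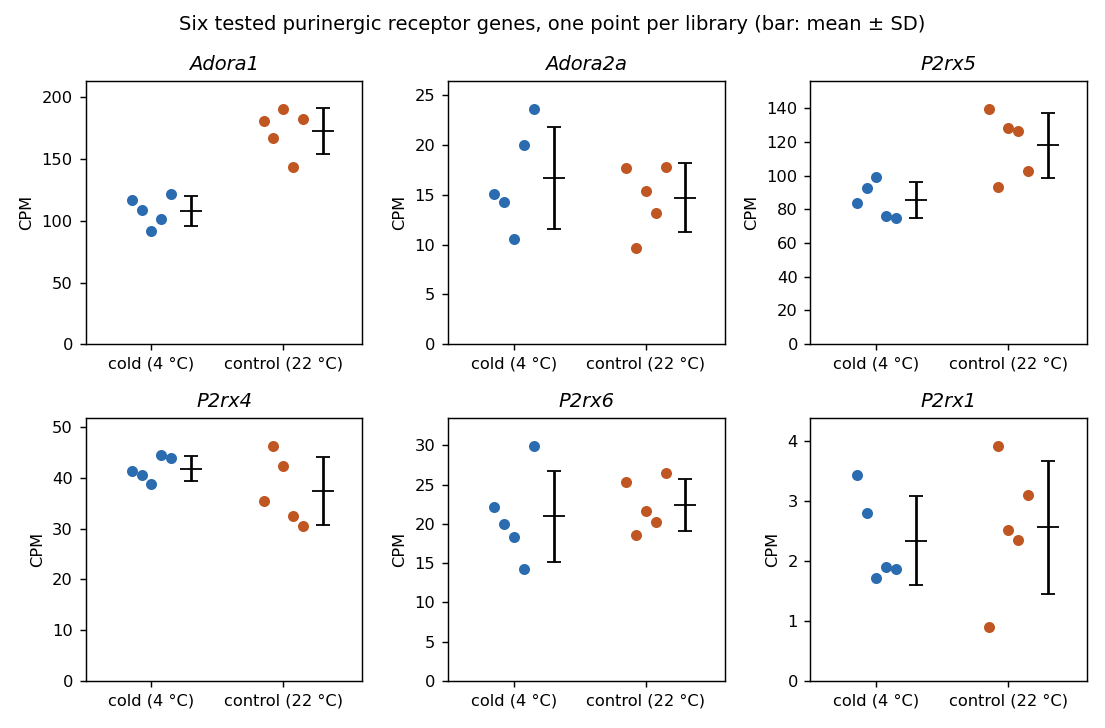
CPM (vertical axes, linear from 0) of the 6 tested members in each cold (blue, left) and control (orange, right) library, with mean ± SD over 5 libraries as black bars. Adora1 lies at 91.8 to 121.8 CPM in cold libraries, below every control library, and P2rx5 overlaps between the groups through control replicate 2.

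Adora1, the Gi-coupled receptor through which adenosine restrains lipolysis in adipocytes, lies on chromosome 1, 136095792 to 136132034, minus strand, in build mm9. Its level was 116.6, 108.6, 91.8, 101.5 and 121.8 CPM in cold replicates 1 to 5, against 181, 166.9, 190.5, 143.3 and 182.7 CPM in control replicates 1 to 5. The highest cold library thus stayed below the lowest control library, which Adora1 alone of the 6 tested members showed; groups did not overlap, in either direction, for 14% of all genes tested. The means were 108 ± 11.9 CPM in cold and 173 ± 18.6 CPM in control libraries (SD, n = 5 each). Adora1 fell by 0.68 on the log2 scale (SE 0.10, 95% interval -0.89 to -0.46), which is 37.5% lower in the cold (edgeR's quasi-likelihood test, adjusted p = 0.000586). In bulk tissue, fewer cells of a type and less RNA per cell cannot be told apart.

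The span of the Adora1 model shares 2018 bases with Mybph, a muscle gene on the other strand, and the library kit named in the labels does not mark strand. Mybph itself had no count in 8 of the 10 libraries and at most 0.621 CPM, in cold replicate 2. The model was counted over 4376 bases of transcript.

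RefSeq's promoter table, on build GRCm38.p6, lists 9 promoters for 7 of the 9 members, and 2 of them belong to Adora1, with starts 601 bases apart. The upstream one is printed because Adora1 is the member with the largest change and this start lies 26 bases from that of the transcript matching the counted model in GENCODE. It covers the 250 bases before the start, at chr1:134235458-134235707 on the minus strand. Capitals mark the GC box GGGCGG, read on both strands as GGGCGG or CCGCCC, with overlapping matches counted.
Adora1 start 1: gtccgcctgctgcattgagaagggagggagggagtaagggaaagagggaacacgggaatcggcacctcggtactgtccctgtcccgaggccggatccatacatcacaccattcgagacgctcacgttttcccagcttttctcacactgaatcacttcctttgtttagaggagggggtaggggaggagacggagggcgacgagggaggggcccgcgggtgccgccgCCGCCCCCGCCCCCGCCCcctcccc
This window is 64.4% G and C and holds 3 GC boxes in a run next to the start. A GC box in either orientation occurs in 32.7% of the 32851 promoter windows of this length in the table. The full cyclic AMP response element TGACGTCA occurs in 1.55% of them and its letters are in neither Adora1 window. These matches are a description of the letters and were not tied to the change in level.

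P2rx5, an ATP-gated channel used as a surface marker of brown and beige adipocytes in the mouse, lies on chromosome 11, 72974032 to 72986189, plus strand. Its level was 83.5, 92.9, 99.3, 76.3 and 74.6 CPM in cold replicates 1 to 5, against 139.4, 93.4, 128.0, 126.5 and 102.6 CPM in control replicates 1 to 5. All cold libraries lay at or below 99.3 CPM and 4 of the 5 controls lay above that. The remaining one, control replicate 2, fell within the cold range. P2rx5 fell by 0.47 on the log2 scale (SE 0.12, 95% interval -0.73 to -0.20), which is 27.6% lower in the cold (quasi-likelihood test, adjusted p = 0.0173). With 1 library left out the adjusted p lay between 0.00376 (without control replicate 2) and 0.04998 (without cold replicate 4), so the call held in those 10 fits, in the last of them only just.

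**Figure D2:**
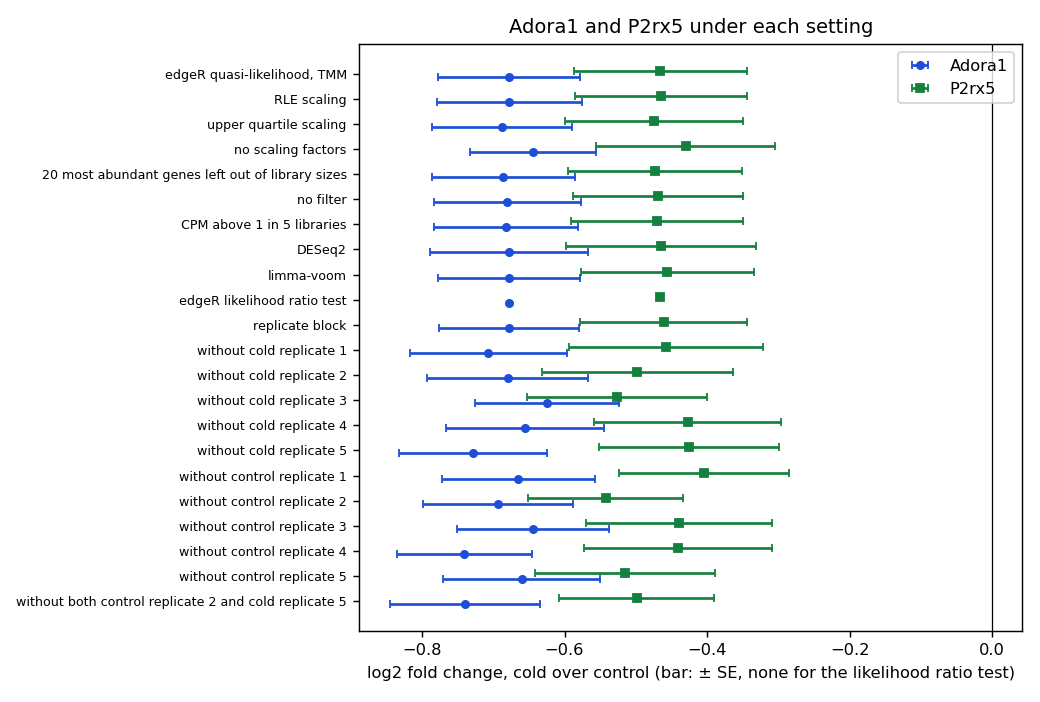
Log2 fold change of cold over control (horizontal axis) of Adora1 (blue circles) and P2rx5 (green squares) under the main setting (top row) and each of 21 alternatives, with ± SE as bars where the test gives an SE. All estimates lie below 0, between -0.74 and -0.62 for Adora1 and between -0.54 and -0.40 for P2rx5.

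The other genes proposed with P2rx5 as adipocyte surface markers in the mouse did not pass the test. Slc36a2, an amino acid transporter used as a marker of brown and beige adipocytes, averaged 726 ± 60.8 CPM in cold and 716.5 ± 68.4 CPM in control libraries. Its log2 fold change was 0.02 (95% interval -0.17 to 0.21, adjusted p = 0.897), and the estimate changed sign without cold replicate 1 or control replicate 1. Slc7a10, an amino acid transporter used as a white adipocyte marker, was at 0.26 (95% interval -0.65 to 1.18, adjusted p = 0.699) from a level of 7.32 ± 3.39 CPM in cold and 6.10 ± 3.41 CPM in control libraries. Whether the change of P2rx5 differed from that of Slc36a2 was not tested.

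Among 12 brown adipocyte markers, 3 rose (Ucp1, Elovl3 and Cox7a1) and Adipoq, the hormone adiponectin, fell by 0.72 (adjusted p = 0.00519, quasi-likelihood test). Among all tested genes 10.2% rose and 9.14% fell. Dio2 and Ppargc1a, also of this list, did not pass the test. Dio2 stood at 1500 CPM in control replicate 2, 165.9 to 283.6 in the other controls and 369 to 660.4 in cold libraries. Ppargc1a stood at 992.7 CPM in control replicate 2, 81.5 to 214.6 in the other controls and 194.1 to 343.2 in cold libraries. The summed level of the 12 markers was 36363 to 41815 CPM in cold and 25954 to 30915 CPM in control libraries. Most of it came from Ucp1 and the fatty acid binding protein Fabp4. Plin1, the protein that coats the adipocyte lipid droplet, was at 873 ± 57.3 CPM in cold and 964 ± 137 CPM in control libraries, or -0.14 on the log2 scale (SE 0.10, adjusted p = 0.348). The part of adipocyte content in the values of Adora1 and P2rx5 was not tested.

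Adora2a, the Gs-coupled receptor whose agonists activate brown fat in mice, lies on chromosome 10, 74779622 to 74797537, plus strand. It was at 15.1, 14.3, 10.55, 19.98 and 23.6 CPM in cold replicates 1 to 5, against 17.6, 9.61, 15.4, 13.1 and 17.7 CPM in control replicates 1 to 5. The groups overlapped over most of their range, with cold replicates 4 and 5 above every control. Its log2 fold change was 0.18 (SE 0.22, 95% interval -0.30 to 0.66, quasi-likelihood adjusted p = 0.600). The interval holds both 0 and a rise of 0.66 on the log2 scale. Without control replicate 2 and cold replicate 5 the estimate was -0.10.

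Adora2b, a Gs-coupled receptor of lower affinity for adenosine, and Adora3, a Gi-coupled receptor known from mouse mast cells, were near the floor of detection. Adora2b had 3, 0, 1, 4 and 3 reads in cold replicates 1 to 5, against 1, 1, 1, 0 and 2 reads in control replicates 1 to 5. Its pooled level was 0.359 CPM in cold (exact 95% Poisson interval 0.179 to 0.643) and 0.201 in control libraries (0.0651 to 0.468). These intervals cover counting error only and overlap. Adora3 had 1 read in the cold group and 1 in the control group, below the floor of 3 reads per group, which is 0.0980 CPM over all cold counts and 0.120 CPM over all control counts. Mast cell markers summed to 8.24 to 13.5 CPM in cold and 8.24 to 67.9 CPM in control libraries. Kit made up most of that sum, at 6.03 to 9.54 CPM in cold and 5.88 to 65.8 CPM in control libraries. Of the 7 mast cell markers, Kit was the 1 tested and fell, and Fcer1a had no count in any library. Cpa3, a mast cell protease too scarce to be tested, lay the other way, with 51 reads in cold and 14 in control libraries and no overlap (1.03 to 2.49 CPM in cold, 0.226 to 0.919 CPM in control libraries). The other proteases of the list, Mcpt4, Tpsb2 and Cma1, had 11, 21 and 8 reads in cold and 10, 15 and 8 in control libraries. The part of mast cells in the values of Adora3 was not tested.

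Per kilobase of counted transcript, Adora1 held most of the adenosine receptor signal in each group. Its share of the summed level of the 4 receptors was 81.4, 81.5, 83.6, 74.3 and 74.8% in cold replicates 1 to 5, against 85.7, 90.9, 87.8, 86.3 and 85.6% in control replicates 1 to 5. Every cold library had a lower Adora1 share than every control library. The mean share of Adora2a was 20.2 ± 3.99% in cold and 12.4 ± 2.19% in control libraries. As a ratio per kilobase, Adora1 stood at 3.02 to 5.18 times the level of Adora2a in cold and at 6.10 to 10.3 times in control libraries. Shares and ratios are descriptions with no test, and they move with either gene.

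**Figure D3:**
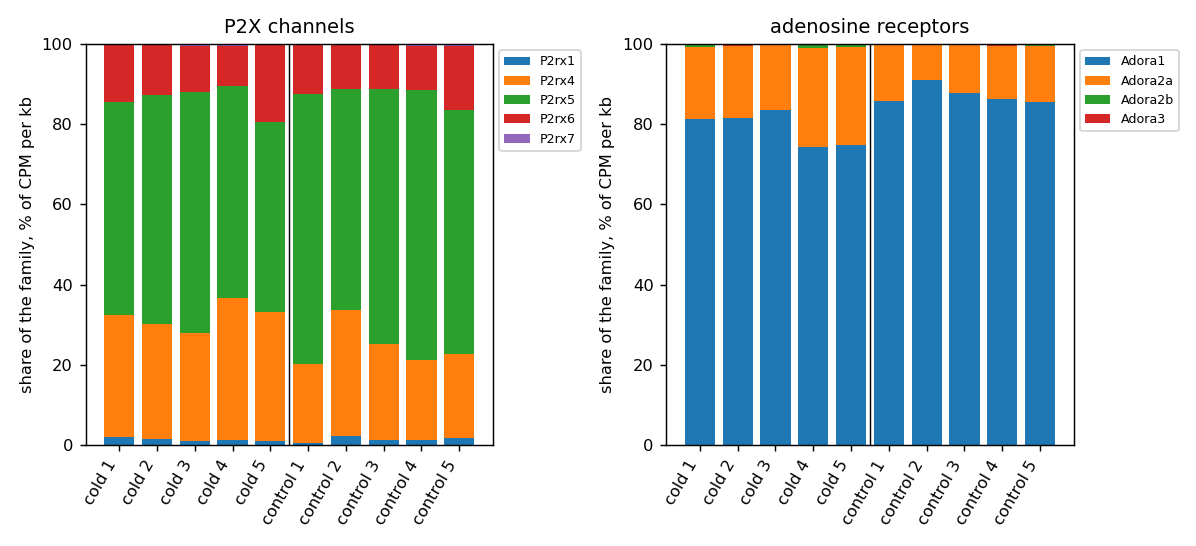
Share of each gene in the summed CPM per kilobase of its family (vertical axis, percent, bars stacked to 100) in each cold library (left of the line) and control library (right of it), for P2X channels and adenosine receptors. Adora1 takes 74.3 to 83.6% in cold and 85.6 to 90.9% in control libraries, and P2rx5 takes 47.4 to 60.2% in cold and 55.2 to 67.5% in control libraries.

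P2rx4, a calcium-permeable channel found in many tissues and on lysosomes, lies on chromosome 5, 123157566 to 123179051, plus strand. Its level was 41.4, 40.5, 38.8, 44.6 and 43.95 CPM in cold replicates 1 to 5, against 35.5, 46.3, 42.3, 32.5 and 30.5 CPM in control replicates 1 to 5. The 5 cold libraries lay within the range of the controls. Its log2 fold change was 0.16 (SE 0.12, 95% interval -0.09 to 0.41, adjusted p = 0.356 in the quasi-likelihood test), so a rise above 0.41 on the log2 scale lies outside the interval. P2rx7, the channel of immune cells that opens at high ATP and feeds the inflammasome, is its neighbour at 123093920 to 123141441 on the same strand. P2rx7 had 2, 2, 5, 3 and 1 reads in cold replicates 1 to 5, against 1, 1, 2, 4 and 3 in control replicates 1 to 5. Its pooled level was 0.425 CPM in cold (exact 95% Poisson interval 0.226 to 0.726) and 0.441 in control libraries (0.220 to 0.789).

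Macrophages carry P2rx4 and P2rx7, and 10 macrophage markers in the table summed to 70.0 to 158.7 CPM in cold and 102.2 to 151.9 CPM in control libraries. All 10 were tested. Cd68, a lysosomal protein of macrophages, rose by 2.12 (adjusted p = 0.00673) and C1qa, a complement component, fell by 0.58 (adjusted p = 0.0213, both in the quasi-likelihood test). Among all tested genes 19.3% changed in either direction. The groups overlapped for Cd68, at 4.49 to 36.2 CPM in cold and 3.14 to 6.60 CPM in control libraries. No marker of this list was at 0 in every library. The part of macrophages in the values of P2rx4 and P2rx7 was not tested.

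P2rx6, a subunit that works mainly in mixed channels with other P2X subunits, lies on chromosome 16, 17561978 to 17572105, plus strand. It was at 22.2, 20.04, 18.4, 14.3 and 29.9 CPM in cold replicates 1 to 5, against 25.3, 18.6, 21.6, 20.2 and 26.4 CPM in control replicates 1 to 5. The cold libraries spread on both sides of the controls. Its log2 fold change was -0.10 (SE 0.18, 95% interval -0.49 to 0.28, adjusted p = 0.725), and 0.01 without cold replicate 4. Skeletal muscle also expresses P2rx6. Its 8 markers summed to 37.0 to 340.7 CPM in cold libraries, with the high values in cold replicates 2 and 3, and to 39.8 to 119.3 CPM in control libraries. The part of skeletal muscle in the values of P2rx6 was not tested.

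P2rx1, the fast channel of smooth muscle and platelets, lies on chromosome 11, 72812647 to 72828699, plus strand, in the same region as P2rx5. It was at 3.43, 2.80, 1.71, 1.90 and 1.87 CPM in cold replicates 1 to 5, against 0.905, 3.92, 2.53, 2.36 and 3.10 CPM in control replicates 1 to 5. The control libraries spanned the whole cold range. With 72 reads in the cold and 64 in the control group, its log2 fold change was -0.14 (SE 0.34, 95% interval -0.87 to 0.59, adjusted p = 0.799), and 0.06 without control replicate 2. Smooth muscle markers summed to 201 to 288 CPM in cold and 140 to 369 CPM in control libraries. Platelet markers summed to 7.29 to 12.4 CPM in cold and 6.11 to 9.08 CPM in control libraries. Of the 7 tested markers of these lists none passed the test, and their part in the values of P2rx1 was not tested.

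Across the 9 genes the order of levels per kilobase was the same in both groups: P2rx5, Adora1, P2rx4, P2rx6, Adora2a, P2rx1, P2rx7, Adora2b and Adora3. P2rx5 averaged 37.3 ± 4.65 CPM per kilobase in cold and 51.6 ± 8.39 in control libraries. Adora1 averaged 24.7 ± 2.73 in cold and 39.5 ± 4.24 in control libraries. P2rx4 averaged 21.0 ± 1.21 in cold and 18.8 ± 3.34 in control libraries. In the cold Adora1 overlapped with P2rx4, which lay below Adora1 in all control libraries. P2rx5 and Adora1 overlapped in the control but not in the cold group. In the cold P2rx6 also overlapped with Adora2a, and the lowest genes overlapped each other in both groups.

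Within the P2X family the share of P2rx5 per kilobase was 54.1 ± 4.82% in cold and 62.9 ± 5.12% in control libraries, and that of P2rx4 was 30.7 ± 3.28% in cold and 23.2 ± 4.91% in control libraries. Control replicate 2, at 55.2% of P2rx5 and 31.4% of P2rx4, was the control library most like the cold ones. The P2X genes that are not members were scarce: P2rx2 had no read in any library, and P2rx3, a channel of sensory neurons, averaged 1.79 ± 0.749 CPM in cold and 1.45 ± 0.762 CPM in control libraries (log2 fold change 0.32, adjusted p = 0.643).

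Genes that release, break down, carry or answer to extracellular nucleotides were listed. Inflammasome genes downstream of P2rx7 and the 2 adipocyte surface markers Slc36a2 and Slc7a10 were included. This pathway list held 59 genes, of which 36 were tested. Of these 7 rose (19.4%) and 1 fell (2.78%), where 10.2% of all tested genes rose and 9.14% fell, and 19.3% changed in either direction. The list's median log2 fold change was 0.11, beside -0.02 over all tested genes. The list was chosen with earlier results of these data known, so its shares and median are a description. The 7 that rose include the inflammasome genes Nek7 and Gsdmd. The ectonucleotidase Alpl changed most. This alkaline phosphatase can strip phosphates from ATP down to adenosine, and in mouse brown fat it also hydrolyses phosphocreatine. Alpl was at 88.8, 88.6, 117.1, 96.2 and 87.9 CPM in cold replicates 1 to 5, against 16.1, 22.8, 17.0, 17.0 and 15.9 CPM in control replicates 1 to 5. It rose 5.39-fold (2.43 on the log2 scale, SE 0.12, quasi-likelihood adjusted p = 2.54e-07), with all cold libraries above all controls. Groups did not overlap, in either direction, for 14% of all tested genes.

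The usual pair of ectonucleotidases did not pass the test. Entpd1, which degrades ATP and ADP to AMP, was at 0.37 on the log2 scale (95% interval -0.04 to 0.78, adjusted p = 0.188), and it passed with 0.56 (adjusted p = 0.0401, the lowest over its alternatives, which reached 0.358) without both control replicate 2 and cold replicate 5. Nt5e, which turns AMP into adenosine, was at -0.73 (95% interval -1.56 to 0.10, adjusted p = 0.204), and at -0.37 without control replicate 2, its highest library. These genes were chosen after their values were seen. Of the 5 tested ectonucleotidases 1 rose and 0 fell, where 10.2% of all tested genes rose and 9.14% fell.

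Adenosine is carried across the plasma membrane by equilibrative transporters, of which Slc29a1 is the main one. Slc29a1 averaged 217 ± 19.0 CPM in cold and 149.9 ± 24.96 CPM in control libraries and rose by 0.54 (SE 0.11, quasi-likelihood adjusted p = 0.00528). The lowest cold library, at 190.4 CPM, lay just above the highest control, at 188 CPM. It was the 1 gene of 4 tested in this group that rose, and none fell, where 10.2% of all tested genes rose and 9.14% fell. Inside the cell AMP is deaminated to IMP by the Ampd enzymes, and both tested genes of this family changed, in opposite directions. Ampd3 averaged 108.5 ± 5.45 CPM in cold and 61.3 ± 16.1 CPM in control libraries, a rise of 0.83 (SE 0.14, adjusted p = 0.00185). Ampd2 averaged 28.2 ± 4.498 CPM in cold and 57.0 ± 9.97 CPM in control libraries and fell by 1.02 (SE 0.14, adjusted p = 0.000290). The ranges of the groups were separate for each of these 3 genes, and for 14% of all genes tested. The 3 genes were picked because they passed the threshold. Of 6 tested genes of adenosine and AMP metabolism Ampd3 and Ampd2 were the 2 that passed. Among all tested genes 19.3% changed in either direction.

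**Figure D4:**
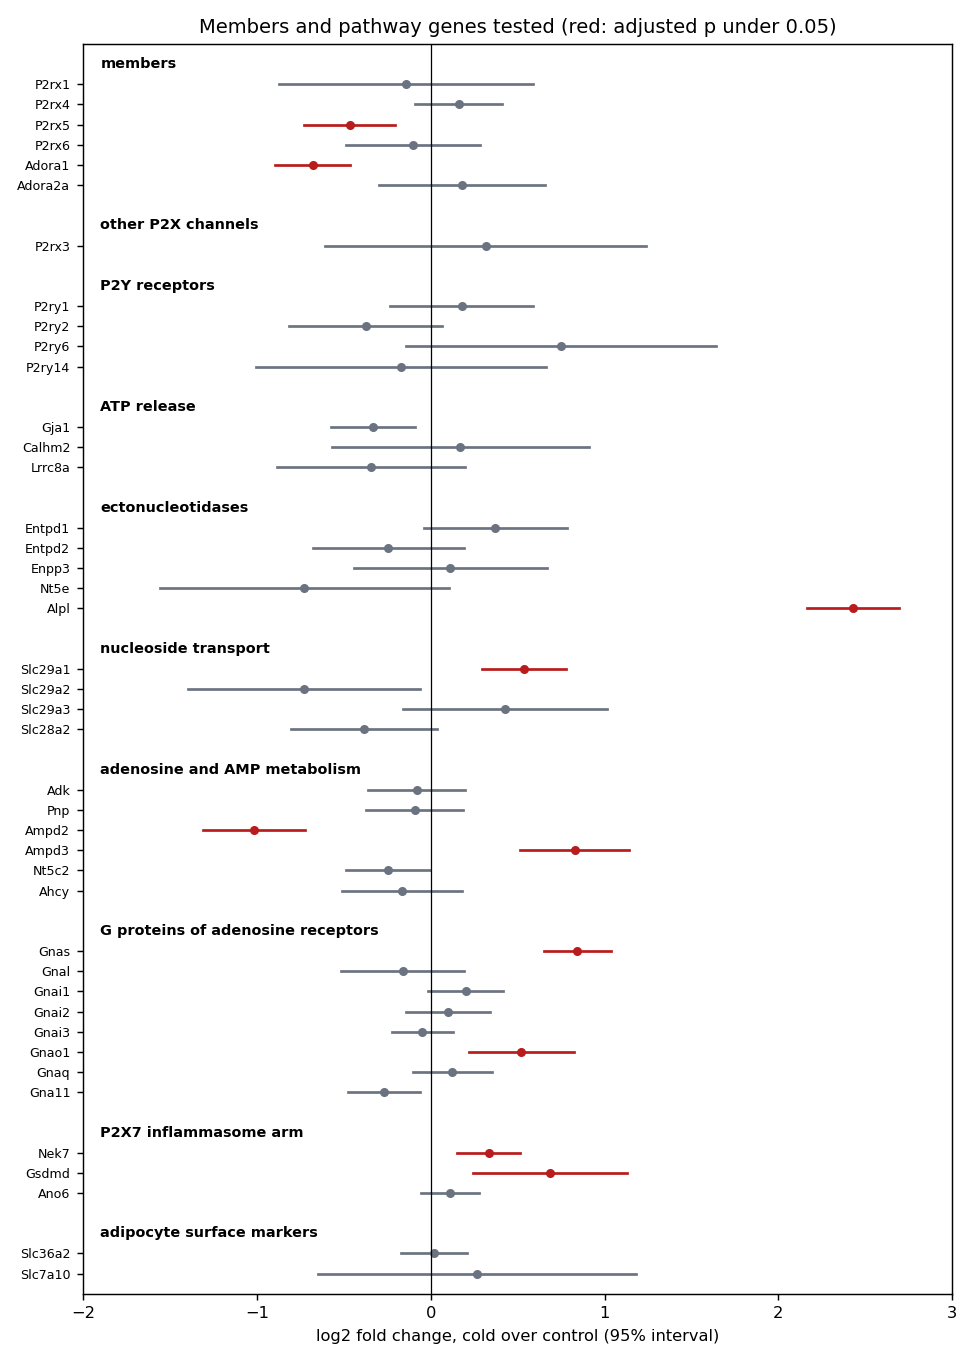
Log2 fold change of cold over control (horizontal axis) with its 95% interval for the 6 tested members (top) and the 36 tested genes of the pathway list by group, adipocyte surface markers included. Genes at an adjusted p under 0.05 are in red. Adora1, P2rx5 and Ampd2 lie below 0 in red and 7 pathway genes lie above it in red, Alpl farthest at 2.43.

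Of the G protein alpha subunits that adenosine receptors use, 2 of 8 rose and none fell, beside 10.2% and 9.14% of all tested genes. Gnas, which encodes Gs, the partner of Adora2a and Adora2b, was at 4630, 4966, 4934, 5337 and 5720 CPM in cold replicates 1 to 5, against 2618, 3045, 3075, 2987 and 2533 CPM in control replicates 1 to 5. It rose 1.79-fold (log2 fold change 0.84, SE 0.09, adjusted p = 5.45e-05), with no overlap between the groups. Groups did not overlap, in either direction, for 14% of all tested genes. Gnas is also the Gs of the beta adrenergic receptors, and its locus makes several transcripts that share this 1 row of the table. Gnao1, of the Gi family, averaged 27.1 ± 3.59 CPM in cold and 18.9 ± 3.64 CPM in control libraries and rose by 0.52 (SE 0.14, adjusted p = 0.0203 in the quasi-likelihood test). That call was lost without cold replicate 1 (adjusted p = 0.0544) and without control replicate 5 (adjusted p = 0.0540), and over its alternatives the adjusted p lay between 0.00573 and 0.0544. The Gi subunits Gnai1, Gnai2 and Gnai3, partners of Adora1, are in the list and did not pass the test, at 0.20, 0.10 and -0.05, and they were chosen after their values were seen.

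No gene of the P2Y receptors, the G protein-coupled receptors for nucleotides, passed the test among 4 tested. P2ry2, which answers to ATP and UTP, was at -0.37 (95% interval -0.81 to 0.07, adjusted p = 0.218), and P2ry6, which answers to UDP, at 0.75 (95% interval -0.14 to 1.64, adjusted p = 0.221), and at 0.42 without cold replicate 3, its highest library. Among 3 tested genes of ATP release none passed. Over all tested genes 19.3% changed in either direction. Gja1, the gap junction protein connexin 43, whose hemichannels can release ATP, averaged 436 ± 36.1 CPM in cold and 549.5 ± 99.0 CPM in control libraries. All 5 cold libraries lay below all 5 controls, and groups did not overlap, in either direction, for 14% of all tested genes. Gja1 missed the threshold, at a log2 fold change of -0.33 and an adjusted p of 0.0544 in the quasi-likelihood test. The adjusted p was 0.0334 with DESeq2, and over its alternatives it lay between 0.0297 (without control replicate 2) and 0.117. Lrrc8a, a subunit of the volume-regulated anion channel, was at -0.34 (95% interval -0.88 to 0.20, adjusted p = 0.366), and at -0.0255 without control replicate 2, its highest library.

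Genes that act downstream of P2rx7 in the inflammasome were mostly scarce. Of 8 listed 3 were tested. Nek7 and Gsdmd rose and none fell, where 10.2% of all tested genes rose and 9.14% fell. Ano6, the other tested gene, did not pass (log2 fold change 0.11, quasi-likelihood adjusted p = 0.341). Nek7, a kinase that binds the inflammasome sensor, averaged 106 ± 8.85 CPM in cold and 84.2 ± 6.66 CPM in control libraries, a rise of 0.33 (SE 0.08, adjusted p = 0.0152). Gsdmd, the pore protein gasdermin D, averaged 6.71 ± 1.46 CPM in cold and 4.16 ± 0.798 CPM in control libraries, a rise of 0.68 (SE 0.20, adjusted p = 0.0333, both in the quasi-likelihood test). Leaving out 1 library ended the call of Gsdmd in 6 of 10 cases, and so did dropping the filter on low counts (0.0502). Over its alternatives the adjusted p lay between 0.0164 and 0.0866. The summed macrophage markers given above overlapped between the groups, and their part in these values was not tested.

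The genes whose profile over the 10 libraries was most like that of Adora1 were Aplp2, Scd1 and Usp20. Likeness was measured as the root mean square difference of log2 CPM standardised over the libraries, which was 0.230 for Aplp2, 0.237 for Scd1 and 0.284 for Usp20, beside a median of 1.33 over all tested genes. Aplp2, a relative of the amyloid precursor protein, was at -0.62 on the log2 scale, Scd1, the stearoyl-CoA desaturase, at -1.18, and Usp20, a deubiquitinase, at -0.67. For P2rx5 the nearest genes were Angpt1 (0.315), the ligand of the endothelial receptor Tek, Pcdhb14 (0.335), a protocadherin, and Zfp467 (0.365), a zinc finger protein. Their log2 fold changes were -0.97, -0.81 and -0.87. The choice of genes by their likeness to genes that fell largely fixed these directions, so they are a description. Pcdhb14 averaged 2.06 ± 0.254 CPM in cold and 3.67 ± 1.10 CPM in control libraries and overlaps protocadherin alpha models.

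In the authors' deposited table, which covers the same 6 members, Adora1 has a log2 fold change of -0.68 with an adjusted p of 2.92e-06. The authors' deposited table gives P2rx5 a log2 fold change of -0.469 with an adjusted p of 0.00698. For P2rx1, P2rx4, P2rx6 and Adora2a the authors' deposited table gives adjusted p-values between 0.481 and 0.847.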

How the data were processed

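The authors' deposited counts are raw reads per RefSeq gene model in each of 10 libraries, per the file headers. STAR, edgeR and build mm9 are named in the submitters' processing notes. Their versions, the read counter and its strand setting were not given in the sources used. The authors' second deposited table holds log2 fold change, log2 CPM, p-value and adjusted p-value as named in its header.

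Counts were fitted with edgeR 4.0.16 (R 4.3.3): TMM scaling, filterByExpr (minimum count 10), glmQLFit and glmQLFTest for cold against control with no covariate, Benjamini-Hochberg adjustment over 11229 genes, threshold 0.05. The SE is the log2 fold change divided by the square root of F. Log2 CPM used a prior count of 2. The fit was tested on simulated data of 11146 tested genes. Of these, 99 were changed by 0.7 and 100 by 1 on the log2 scale, and 66.7% and 95% of them were called. Of the calls 5.29% were false. Each simulated gene had the typical spread of its level, and no library was made to stand apart. In the data 19.3% of tested genes were called, so the rates are those of the simulation.

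Control columns carry no group word and were matched by their number, and 0 library columns stayed unused. Of 20295 rows, 27 kept their RefSeq identifier as name. Starts were raised by 1 for printing. The labels name separate mice; libraries of a group differed by more than sampling noise (chi-square per degree of freedom 3.31 to 38.7).

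Members and lists were chosen with earlier results of these data known. Named were all members, pathway genes past the threshold (or the 2 with the smallest p of a group with none) and the 3 most like genes per called member. Ucp1, Adipoq and Plin1, other cell markers and the pathway gene Ano6 were also named outside that rule. Alternatives were RLE, upper quartile and unscaled sizes, sizes without the 20 most abundant genes, no filter, a CPM above 1 in 5 libraries, DESeq2 1.42.0, limma-voom (limma 3.58.1), edgeR's likelihood ratio test, a replicate block and left-out libraries.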

Additional observations from a re-analysis of the deposited data

Results flagged for a closer look

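Libraries standing apart from the other 4 of their group, by Dixon's criterion at 95% (0.71 for 5 samples), were found in 6 of 74 groups of values examined. Chance gives about 1 in 20 for independent, normally spread values. The groups here share the same libraries, so that rate is only a rough guide. Adora3 was at 0.155 CPM in cold replicate 2 and 0.168 CPM in control replicate 4, each from 1 read, and at 0 in the others. A single read among zeros always meets the criterion. Alpl was at 117.1 CPM in cold replicate 3, with the next cold library at 96.2 CPM, and at 22.8 CPM in control replicate 2, with the next control at 17.0 CPM. Gja1 was at 722.8 CPM in control replicate 1, with the next control at 536.5 CPM. Scd1 was at 52789 CPM in cold replicate 5, with the next cold library at 31393 CPM.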

How the results depend on the processing

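Adora1 and P2rx5 were called lower, and no member higher, under all 21 alternatives. The log2 fold change of Adora1 lay between -0.74 and -0.62 and its adjusted p reached at most 0.0028; that of P2rx5 lay between -0.54 and -0.40, with an adjusted p of up to 0.04998. Over all genes 1142 rose and 1026 fell; leaving out a library gave 823 to 1310 higher and 732 to 1157 lower calls, 5 to 7 pathway genes rose and 1 to 3 fell. Pathway genes called lower numbered 2 with upper quartile scaling, DESeq2 or the likelihood ratio test, 3 without cold replicate 5 or without control replicate 2, and 5 without both; the cause was not tested. Estimates that missed the threshold changed sign for P2rx1 (-0.35 to 0.06 with a library left out, positive without control replicate 2, and 0.12 without it and cold replicate 5), P2rx6 (-0.32 without those 2 libraries, 0.00985 without cold replicate 4), Adora2a (-0.10 without control replicate 2 and cold replicate 5, 0.31 without cold replicate 3), Gnai3 (0.00726 without those 2 libraries) and Slc36a2 (-0.0261 to 0.0678, at -0.0194 without cold replicate 1 and lowest without control replicate 1). Counted without a length scale, the mean share of Adora1 in its family was 86.5% in cold and 92.1% in control libraries, since its transcript is the longest. Replicate numbers did not pair the mice: deviations of same-numbered libraries correlated at -0.25 to 0.19. With the replicate block 981 genes rose and 808 fell, 2 members and 1 pathway gene were called lower and 6 pathway genes higher (Gsdmd missed, adjusted p = 0.0526), and Adora1 was at -0.68 (adjusted p = 0.00235) and P2rx5 at -0.46 (0.0275). Depth limits P2rx1, P2rx7, Adora2b and Adora3.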
